A study of Mus musculus with 8 samples.

Results

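The genes described here are the mouse replication-dependent histone genes, taken as every row of the expression table whose symbol begins with Hist1h, Hist2h, Hist3h or Hist4h. They are 67 of the 34094 genes in the table: 6 encode linker histone H1, 19 encode H2A, 18 encode H2B, 11 encode H3 and 13 encode H4, counting 3 annotated pseudogenes. By the number in the symbol, 55 belong to cluster 1 (chromosome 13), 8 to cluster 2 (chromosome 3), 3 to cluster 3 (chromosome 11) and 1, Hist4h4, stands alone on chromosome 6. RNA sequencing was done on CA1 tissue of the hippocampus from C57BL/6 mice aged 2 months. The wild-type group (WT) and the conditional Brpf1 knockout group (cKO, whose genotype is labelled Brpf1 knockdown) have 4 libraries each, numbered 1 to 4. The series title places the loss of Brpf1 in the hippocampus. The Cre driver, the deleted exons and the mouse behind each library are not stated in the labels. A protocol mentions 3 pairs of mice, so some libraries may share an animal, and p-values measure the spread between libraries, which may be technical.

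Chromatin is wound on octamers of the core histones H2A, H2B, H3 and H4, and H1 binds the linker DNA between them. Most genes for these proteins lie in clusters, have no introns and are transcribed in S phase, when new DNA needs histones. Their mRNAs usually end just after a conserved stem-loop that is bound by the protein SLBP, and carry no poly(A) tail. In differentiated cells such as neurons some of these genes also give longer, polyadenylated mRNAs, while replication-independent variants such as H3.3 and H2A.Z supply much of the histone. BRPF1 is a scaffold of acetyltransferase complexes that modify histone H3. The library kit was a stranded mRNA kit, so the values below describe the histone transcripts that such a kit recovered.

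The stem-loop is the feature that sets these mRNAs apart, and it was searched for in the annotated transcripts (GENCODE vM21, GRCm38). A match was a perfect 6 base-pair stem starting with GG, closed by a 4-base loop starting with TT. It was found in 44 of the 67 members. The windows of 30 bases below hold the 16 bases of the stem-loop in capitals, with 5 bases before and 9 after, written as DNA of the sense strand, 5′ to 3′. They are shown because 4 of these 8 members, all of them compared below, have a stem-loop other than the commonest.
Hist1h2ac: ccaaaGGCTCTTTTCAGAGCCcccactttt
Hist3h2a: ccaaaGGCTCTTTTCAGAGCCacccacaac
Hist1h1c: caaaaGGCTCTTTTCAGAGCCaccactccc
Hist2h3c2: acaaaGGCTCTTTTCAGAGCCaccacagct
Hist2h2ac: aaaaaGGCTCTTTTTAGAGCCaccaaatct
Hist1h4h: ccaaaGGCCCTTTTCAGGGCCgcccacatt
Hist1h4i: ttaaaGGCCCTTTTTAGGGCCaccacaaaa
Hist1h4j: ctaaaGGTCCTTTTCAGGACCaccacatct
The commonest form, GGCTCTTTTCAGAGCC, was in 26 members (3 H1, 10 H2A, 8 H2B and 5 H3 genes) and in no H4 gene. H4 genes had stems of their own: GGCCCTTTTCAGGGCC in 7, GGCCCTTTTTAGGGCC in 2 and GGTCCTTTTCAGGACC in 2. Another form, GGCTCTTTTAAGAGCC, was in 6 genes (1 H1, 2 H2B and 3 H3), and Hist2h2ac was the 1 member with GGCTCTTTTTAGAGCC. The annotated transcript goes on past the stem-loop for 2010 bases in Hist1h2ac, 1643 in Hist3h2a and 840 in Hist1h1c, but for 57 in Hist2h2ac and 46 in Hist1h4h. In Hist1h2bc, Hist2h2be and Hist1h4k the annotated transcript holds no match.

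Promoters from RefSeq (GRCm38.p6) were matched to 58 members, with 59 windows reaching from 250 bases before the start to 50 after it. Each window was searched on both strands for TATAAA (the TATA box), CCAAT (bound by NF-Y) and ATTTGCAT (the octamer, bound by the POU factor OCT1). The 250 bases upstream of Hist1h2ac and Hist2h2ac are shown because these H2A genes had the smallest p-values of all members, with matches on either strand in capitals, and those next to the start of Hist1h4k are shown as a contrast.
Hist1h2ac, chr13:23683960-23684209, minus strand: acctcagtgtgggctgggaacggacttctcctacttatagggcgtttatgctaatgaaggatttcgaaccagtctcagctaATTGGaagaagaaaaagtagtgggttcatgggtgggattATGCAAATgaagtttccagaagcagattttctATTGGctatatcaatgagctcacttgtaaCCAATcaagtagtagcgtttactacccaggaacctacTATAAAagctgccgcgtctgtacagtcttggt
Hist2h2ac, chr3:96220881-96221130, minus strand: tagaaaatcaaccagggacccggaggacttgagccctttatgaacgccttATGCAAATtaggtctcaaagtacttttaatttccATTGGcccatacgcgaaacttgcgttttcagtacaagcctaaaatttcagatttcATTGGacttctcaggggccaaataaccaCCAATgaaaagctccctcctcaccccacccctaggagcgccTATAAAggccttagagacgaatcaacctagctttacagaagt
Hist1h4k, chr13:21750554-21750673, minus strand: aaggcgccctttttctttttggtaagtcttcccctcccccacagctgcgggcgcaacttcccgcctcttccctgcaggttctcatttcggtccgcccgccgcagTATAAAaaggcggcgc
The 250 bases upstream of each of these H2A genes hold 1 TATAAA, 3 CCAAT and 1 ATTTGCAT. Those of Hist1h4k hold 1 TATAAA and neither of the others. TATAAA was in 34 of the 59 windows (57.6%) against 13.6% of all 32851 promoter windows, CCAAT in 50 (84.7%) against 37.4%, and ATTTGCAT in 12 (20.3%) against 1.74%. All windows of H1, H2A, H2B and H3 genes held CCAAT, against 3 of 12 for H4. Some matches lie in the 50 bases after the start, as does the only CCAAT match of Hist2h3c1 and of Hist2h3c2. ATTTGCAT was in 6 of 16 H2A and 6 of 16 H2B windows and in none of H1, H3 or H4. Many H2A and H2B windows overlap, since these genes sit in pairs that share a promoter region, so they are not independent.

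The libraries held 42346644 to 49897832 reads on genes in WT and 40330226 to 46559795 in cKO, of which 7502 to 10040 and 6524 to 7723 fell on the 67 genes. A normalized read count is the number of reads after division by a size factor for the library. Fold changes are differences between group means of log2(normalized reads + 1). The added 1 shrinks them for genes with few reads, but a library at or near 0 can make them larger than the means imply. Hist3h2bb-ps, with cKO library 4 at 0, had −0.91 although its cKO mean was 92.8% of WT. Brpf1, the targeted gene, had 1358, 1451, 1473 and 1380 normalized reads in WT libraries 1 to 4 and 848, 1032, 897 and 1005 in cKO, with no overlap. Its mean in cKO was 66.8% of WT, with a log2 fold change of −0.59 (SE 0.089) and a limma adjusted p of 0.132. The authors' deposited table gives it an FDR of 1.47e-07.

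A handful of the histone genes carried most of the signal. Hist1h2bc (H2B), Hist3h2a (H2A), Hist1h1c (the H1 variant H1.2), Hist3h2ba (H2B) and Hist2h2be (H2B) made up 76.2% of the histone reads in WT. Per kilobase of annotated transcript the WT level was 1536 normalized reads for Hist1h2bc, 1009 for Hist3h2ba, 907 for Hist1h1c, 812 for Hist3h2a and 233 for Hist2h2be, against a median of 9.35 over the 67 genes. At the other end 39 members averaged under 10 normalized reads, and 37 had reads in all 8 libraries. H2B genes held 44.0% of the WT histone reads, H2A 27.1%, H1 19.1%, H4 5.84% and H3 4.0%.

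**Figure D1:**
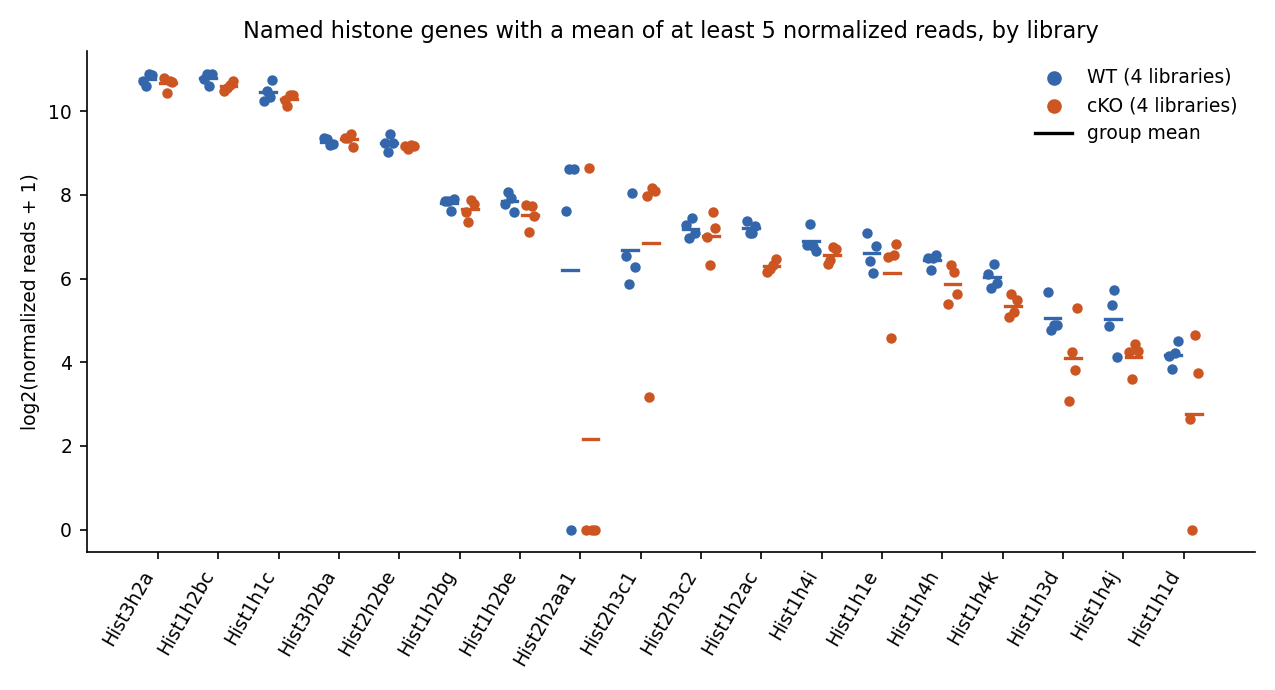
Normalized reads on a log2(value + 1) scale (y axis) of the named histone genes with a mean of at least 5 normalized reads, in order of their mean (x axis), with 1 point per library and a line at each group's mean of the log2 values. The cKO points of Hist1h2ac and Hist1h4k lie below all WT points, while Hist2h2aa1 has 1 WT and 3 cKO libraries at 0.

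Across the set, values in cKO tended to sit below those in WT, by small amounts that did not pass the test gene by gene. The difference of mean log2 values was negative for 55 of the 67 members (82.1%), with a median of −0.35, against 53.4% and −0.03 for all 34094 genes in the table. This count and those below are not of independent genes. In 31 of the 67, over 50% of the 50-base words of the annotated transcript occur in another member. Hist1h2ao and Hist1h2ap, for example, had the same reads in WT libraries 1 to 4 (3, 3, 2 and 1). The 12 members with positive differences were Hist1h2ab, Hist1h2ae, Hist2h2aa2, Hist1h2bm, Hist1h2bp, Hist3h2ba, Hist1h3b, Hist1h3h, Hist1h3i, Hist2h3c1, Hist1h4a and Hist1h4f. Of these, 9 averaged under 10 normalized reads in both groups, the exceptions being Hist3h2ba, Hist2h3c1 and Hist1h2ae. The 67 genes summed to 7804, 8040.2, 7815 and 8671 normalized reads in WT libraries 1 to 4 and to 7116, 6549.5, 7516 and 7395 in cKO. Every cKO sum was below every WT sum, and the mean, 7144 ± 430 (SD, n = 4) against 8083 ± 407, was 88.4% of WT. Per 1000000 reads on genes the histone reads ranged from 175 to 201.2 in WT and from 149 to 171 in cKO. In bulk tissue, fewer cells of a type and less RNA per cell cannot be told apart.

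The filter of at least 1 normalized read in at least 4 libraries left 60 members to test. None passed limma at an adjusted p of 0.05, a level that 0.0191% of all genes tested reached. At an unadjusted p under 0.05, 5 members were lower in cKO (4.6% of all genes tested were) and 0 were higher (4.07% of all). The 5 are Hist1h2ac, Hist2h2ac, Hist1h4k, Hist1h4h and Hist1h3g. Of these Hist1h3g passed the filter through its 4 WT libraries, with 1 cKO library at that level, so the filter favoured a lower cKO value. The count was 3 without WT library 1, and 3 under quantile normalization. The cKO libraries lay wholly below the WT libraries at 4 members (2.35% of all genes) and above them at 0 (2.57% of all). These are Hist1h2ac, Hist1h4k, Hist2h2ac and Hist1h2an, of which the last rests on 0 to 5 reads a library and on size factors, since WT library 2 and cKO library 2 had 1 read each. Hist1h2an too passed the filter through its WT libraries, which leaves 3 members for which the filter did not favour this outcome. Hist1h2ac was the 1 member under 0.05 by the FDR in the authors' deposited table, where 0.657% of all genes were. The cKO libraries also had fewer genes with a read (25476 to 26587, against 26634 to 27549 in WT), and the part of this in the histone counts was not tested.

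Genes with few reads leaned towards lower values in cKO throughout the table, so the members were also set beside genes of their own level. Below a mean log2 value of 2 the difference was negative in 21 of 28 members (75.0%) and in 54.9% of all genes. Between 2 and 5 it was negative in 21 of 24 (87.5%) against 62.7%, and between 5 and 8 in 9 of 10 (90.0%) against 62.4%. The median between 5 and 8 was −0.37 for members and −0.10 for all genes. The 5 members at 8 or more had 4 negative differences with a median of −0.10, against 43.7% and 0.02 for all genes at that level.

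**Figure D2:**
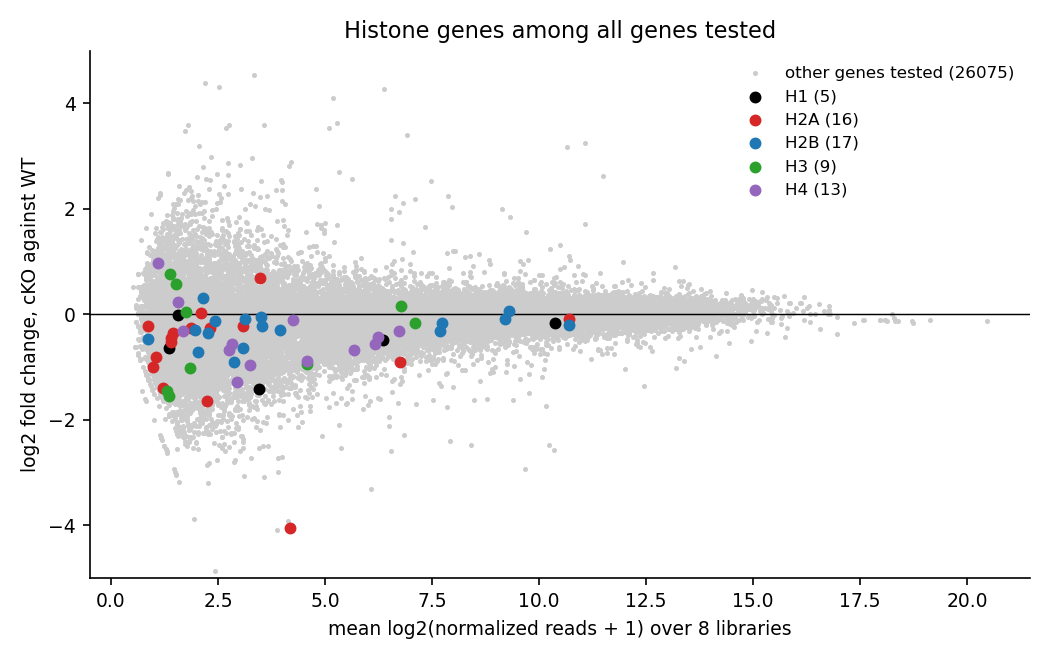
Log2 fold change of cKO against WT (y axis) by the mean log2(normalized reads + 1) over 8 libraries (x axis), for the 26135 genes tested. The 60 histone genes among them are coloured by type and the others are grey. Most coloured points, 50 of 60, lie below 0, inside the cloud of other genes of the same level.

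Of the H2A genes, which encode the core histone that pairs with H2B, 16 of 19 had negative differences, with a median of −0.36. The summed H2A reads were 2088, 2114, 2094 and 2463 in WT and 1886, 1898, 1828 and 1786 in cKO, without overlap (84.5% of WT). That separation is lost without Hist2h2aa1, a gene listed at 0 in 4 libraries (described below): the other 18 H2A genes came to 1891, 1725, 2094 and 2070.1 in WT and to 1886, 1497, 1828 and 1786 in cKO, or 89.9%. Hist1h2ac (ENSMUSG00000069270), an H2A gene of cluster 1, had 164, 135, 136 and 152 normalized reads in WT and 70.9, 74.3, 79.8 and 88.1 in cKO. The highest cKO library was thus far under the lowest WT library, and the mean of 78.3 ± 7.50 was 53.3% of the WT mean of 147 ± 14.1 (SD, n = 4). The log2 fold change was −0.90 (SE 0.17), with an unadjusted limma p of 0.000306 and an adjusted p of 0.291. Under the alternatives its adjusted p was between 0.176 and 0.697, and the authors' deposited table gives an FDR of 0.000462. Of the 50-base words in its annotated transcript 11.6% occur in another member, and the small annotated genes Gm24991 (same strand) and Gm44350 (opposite strand) overlap it.

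Hist2h2ac (ENSMUSG00000068855), a cluster 2 gene for H2A, was rare, with 12.5, 8.13, 4.65 and 6.05 normalized reads in WT and 1.06, 1.00, 2.19 and 2.87 in cKO. These stand for 12, 8, 5 and 7 reads against 1, 1, 2 and 3, so the groups did not overlap but counting error is large. Its log2 fold change was −1.65 (SE 0.53, limma adjusted p = 0.496). Hist3h2a, by far the most abundant H2A gene, had 1682, 1542, 1886 and 1856 in WT and 1772, 1392, 1692 and 1656 in cKO. The groups overlapped and the log2 fold change was −0.10 (SE 0.10), and the same-strand gene Trim17 overlaps its annotated span. Without Hist3h2a the summed H2A reads in cKO were 49.4% of WT, and in that sum Hist2h2aa1 (described below) held 245 reads in WT and 100.4 in cKO. The 14 H2A genes of cluster 1 alone came to 190 ± 13.3 in WT and 114 ± 11.7 in cKO (SD, n = 4), or 60.2%, without overlap, and most of those reads were from Hist1h2ac. Among the rare ones, Hist1h2af had 4.16, 0, 5.58 and 5.18 in WT and 0, 0, 3.28 and 0 in cKO.

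The H2B genes, partners of H2A in the nucleosome, had 15 of 18 negative differences, a median of −0.21, and no member at an unadjusted p under 0.05. Their sum was 3543, 3636, 3363 and 3687 in WT and 3139, 3067, 3411 and 3291 in cKO, where cKO library 3 lay above WT library 3 (90.7% of WT). Hist1h2bc (ENSMUSG00000018102), the leading H2B gene, had 1744, 1893, 1554 and 1911 in WT and 1431, 1501, 1568 and 1682 in cKO. Its groups overlapped, and the log2 fold change was −0.20 (SE 0.092, limma adjusted p = 0.585). Hist3h2ba went the other way, with 655, 642, 588 and 592 in WT and 652, 655, 701 and 569 in cKO (difference 0.05 on the log2 scale, SE 0.10). Hist2h2be had 610 ± 73.4 in WT and 569 ± 14.1 in cKO (SD, n = 4). Hist1h2be and Hist1h2bg of cluster 1 had log2 fold changes of −0.32 (SE 0.18) and −0.16 (SE 0.16), both with overlapping groups. Hist1h2bj, with under 10 reads in every library, had a value of −0.71 (SE 0.57).

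The H4 genes, whose products form the core tetramer with H3, had the lowest sum in cKO relative to WT of the 5 types. The 13 genes came to 483, 505, 504 and 398 in WT and to 362, 316, 306 and 369 in cKO, so that the highest cKO sum was below the lowest WT sum. The mean of 338 ± 31.7 was 71.6% of 472 ± 50.5 (SD, n = 4), and 11 of 13 differences were negative with a median of −0.56. Hist1h4k (ENSMUSG00000064288) had 67.6, 53.8, 80.0 and 58.7 in WT and 32.8, 48.2, 36.1 and 44.0 in cKO, without overlap. Its mean was 61.9% of WT, with a log2 fold change of −0.68 (SE 0.24, limma adjusted p = 0.514). Since 71.5% of the 50-base words of its annotated transcript occur in other members, its reads depend on how the authors' counting placed reads shared between near-identical genes.

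Hist1h4h had 88.4, 73.1, 89.2 and 93.3 in WT and 41.3, 79.3, 69.9 and 48.8 in cKO, where cKO library 2 exceeded WT library 2 (log2 fold change −0.56, SE 0.25, adjusted p = 0.574). Hist1h4j had 28.1, 40.6, 52.1 and 16.4 in WT and 17.99, 11.04, 20.8 and 18.2 in cKO, a wide spread in WT (−0.89, SE 0.41). Hist1h4i, the H4 gene with most reads, had 111, 157, 109 and 100.2 in WT and 80.4, 86.3, 107 and 103.4 in cKO (−0.33, SE 0.20). In these 3 genes the groups overlapped. Hist1h4n had 16.6, 13.2, 22.3 and 2.59 in WT and 6.35, 3.01, 3.28 and 3.83 in cKO, and Hist2h4 of cluster 2 had 86.3 ± 10.4 and 73.7 ± 47.5 (SD, n = 4). Hist1h4f, with at most 5 reads a library, had the largest positive log2 fold change of all tested members, 0.97 (SE 0.81).

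The H3 genes could not be read as a sum. Their reads came to 312, 238, 476 and 269 in WT and 398, 123, 508 and 473 in cKO, or 116% of WT, with groups that overlapped throughout. Hist2h3c1 decides that sum, and without it the H3 reads in cKO were 85.4% of WT. Of the 11 genes 7 had negative differences, with a median of −0.71, and of the 9 that could be tested 5 did, with a median of −0.17. Hist2h3c2 of cluster 2 had 155, 124, 173 and 135 in WT and 126, 79.3, 191 and 147 in cKO. Hist1h3d of cluster 1 had 49.9, 26.4, 28.8 and 28.5 in WT and 7.41, 18.1, 13.1 and 38.3 in cKO, a log2 fold change of −0.95 (SE 0.47, limma adjusted p = 0.595) in which cKO library 4 lay among the WT libraries. Hist1h3g and Hist1h3e were read in all 4 WT libraries, at up to 6.24 and 7.11 normalized reads, and in 1 cKO library, library 2, at 4.02 each.

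All 6 linker histone genes had negative differences, with a median of −0.50, and none was at an unadjusted p under 0.05. Hist1h1c gave most of the H1 reads, with 1219, 1441, 1290.4 and 1709 in WT and 1231, 1121, 1336 and 1347 in cKO (a difference of −0.16 on the log2 scale, SE 0.12, adjusted p = 0.703). The ranges overlapped widely. Hist1h1e (H1.4) had 136, 84.3, 68.8 and 109 in WT and 90.0, 23.1, 94.0 and 112 in cKO, and without cKO library 2 its log2 fold change was 0.03 in place of −0.48. Its annotated span overlaps Hist1h2be on the same strand. Hist1h1d (H1.3) had 16.6, 13.2, 17.7 and 21.6 in WT and 5.29, 0, 24.0 and 12.4 in cKO (−1.41, SE 0.85). The summed H1 reads in cKO were 87.9% of WT, with overlap.

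**Figure D3:**
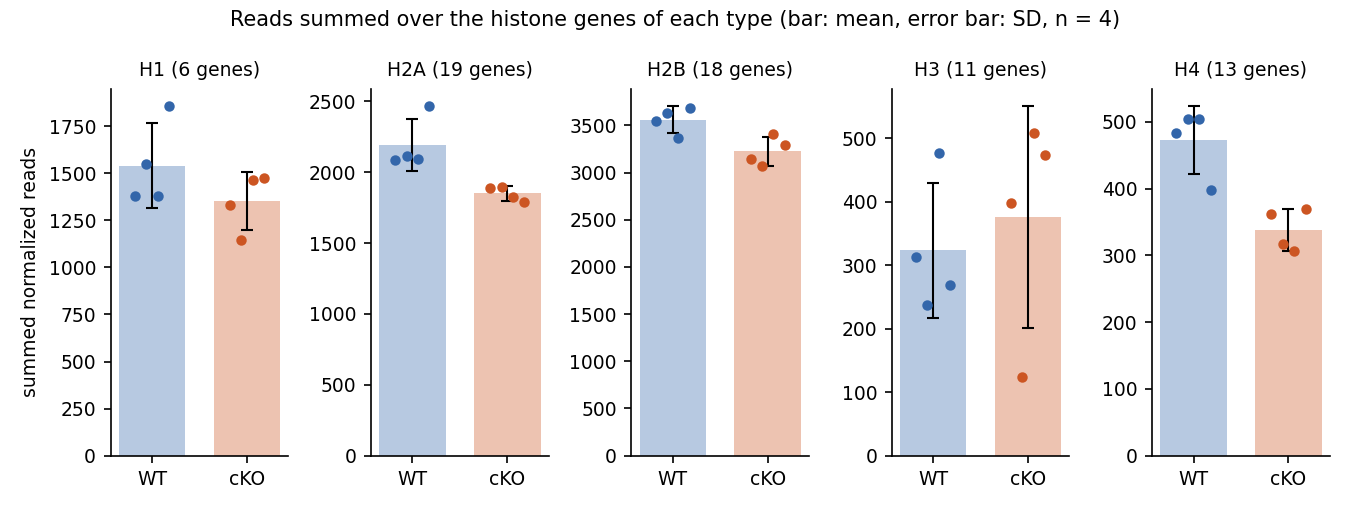
Summed normalized reads (y axis, starting at 0 and scaled separately) of the histone genes of each type in WT and cKO, with a point per library, the bar at the mean and the error bar 1 SD (n = 4). The cKO libraries lie below all WT libraries for H4 and for H2A, where the groups overlap once Hist2h2aa1 is left out, and the groups overlap for H1, H2B and H3.

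By chromosome cluster, the 55 genes of cluster 1 came to 4265, 4645, 4101 and 4882 in WT and to 3570.2, 3415, 3993 and 4076 in cKO, without overlap (84.1% of WT), and 46 of them had negative differences. The 8 genes of cluster 2 came to 1224 ± 63.8 and 1090 ± 11.9 (SD, n = 4), also without overlap (89.1%), with 6 negative. Without Hist2h2aa1 and Hist2h3c1 cluster 2 came to 878, 737, 973 and 839 in WT and to 846, 674, 817 and 807 in cKO, and the groups overlapped (91.7%). The 3 genes of cluster 3 came to 2372 ± 132 and 2282 ± 184, with overlap (96.2%). Hist4h4 had 23.9, 16.3, 0 and 11.2 in WT and 10.6, 3.01, 0 and 16.3 in cKO. The difference between clusters was not tested. The 5 most abundant genes together were at 91.6% of WT, and the other 62 at 78.0% (1921 ± 98.4 against 1498 ± 134, SD, n = 4). Neither of these sums overlapped between groups.

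In cluster 2 a pair of genes showed a pattern that crossed the groups. Hist2h2aa1 (H2A) had 197, 389 and 393 normalized reads in WT libraries 1, 2 and 4 and 402 in cKO library 2, and was listed at 0 in WT library 3 and cKO libraries 1, 3 and 4. Hist2h3c1 (H3) was at 263, 249.8, 287 and 271 in those same 4 libraries and at 92.6, 57.9, 76.9 and 8.03 in the rest. Gm20634, an annotated gene on the same strand that overlaps both, was at 0 where Hist2h2aa1 was, and at 183, 240, 310.0 and 163 in the others. The sum of Hist2h2aa1 and Hist2h3c1 was 289, 447, 263 and 470 in WT and 249.8, 409.6, 287 and 271 in cKO, with overlapping groups. So the same 4 libraries were at 0 for 2 of these genes and high for the third, and neither histone gene gives an independent level here. Hist2h2aa1 also has a near-identical copy, Hist2h2aa2, which was at 0 in all libraries but cKO library 4 (5.75). Its log2 fold change of −4.05 has an SE of 2.78. Leaving out both genes, the sum of the other members in cKO was 88.7% of WT, without overlap.

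**Figure D4:**
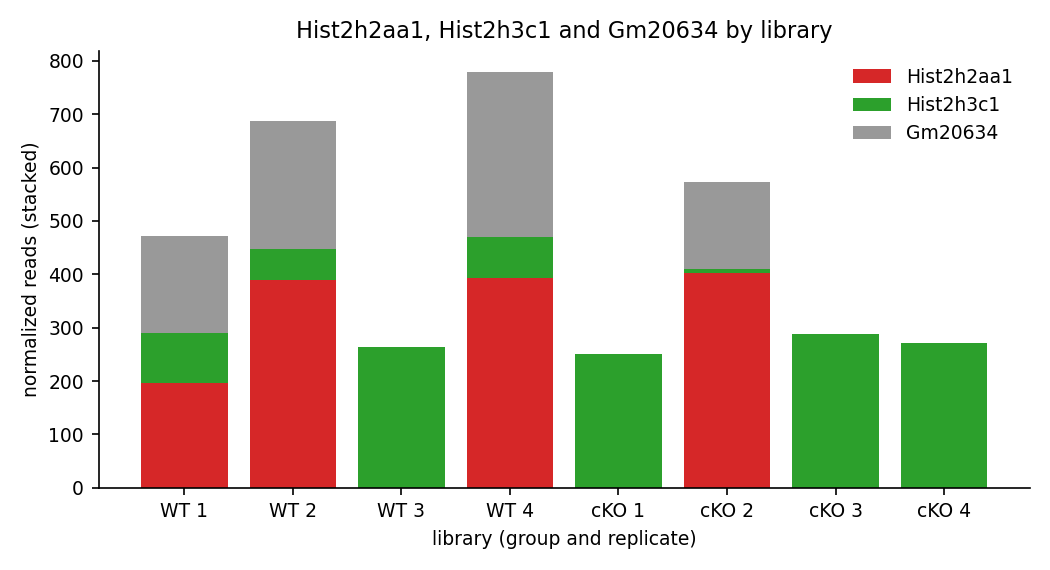
Normalized reads (y axis, stacked, from 0) of Hist2h2aa1, Hist2h3c1 and the overlapping gene Gm20634 in each library (x axis). WT libraries 1, 2 and 4 and cKO library 2 have all 3 genes, and the other 4 libraries have Hist2h3c1 alone.

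H2A and H2B genes often face away from each other across a shared promoter, and 13 such pairs (starts at most 500 bases apart in the GENCODE annotation) hold 26 members. Both genes had negative differences in 10 pairs, the signs were opposite in 3, and both were positive in 0. The H2A gene had the lower difference in 9 of 13. Hist1h2ac and Hist1h2bc start 250 bases apart. Reads on Hist1h2ac were 9.43%, 7.14%, 8.73% and 7.95% of those on Hist1h2bc in WT and 4.96%, 4.95%, 5.09% and 5.24% in cKO, so the ratio within the pair differed between groups without overlap. Hist2h2ac and Hist2h2be start 238 bases apart, and there the ratio was 2.06%, 1.55%, 0.661% and 0.997% in WT and 0.184%, 0.183%, 0.376% and 0.503% in cKO. In the pair Hist1h2ae and Hist1h2bg the H2A gene was the higher in cKO, at 14.1 ± 6.46 against 8.85 ± 4.74 (SD, n = 4), with overlap. These ratios rest on the same values as the differences of Hist1h2ac and Hist2h2ac above.

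Levels in WT were set beside the annotated 3′ end of each gene. The 22 genes whose transcript runs 100 bases or more past the stem-loop had a median of 48.0 normalized reads per kilobase. The 22 genes that end sooner had 9.23, and the 23 without a stem-loop in the annotated transcript had 6.89. The last class mixes short annotated transcripts, such as 312 bases for Hist1h4k, with long ones, such as 2620 for Hist2h2be. A short annotated transcript may stop before any stem-loop, so this class is not a defined 3′ end. The classes overlapped widely, from 0.856 to 1009 in the first and up to 1536 in the last, where Hist1h2bc stands. Negative differences were the rule in each class, at 19 of 22, 16 of 22 and 20 of 23 genes, and the medians were −0.37, −0.35 and −0.31. The class sums overlapped between groups for the genes with a stem-loop, and did not for those without (87.4% of WT). Much sequence is shared: in 31 of the 67 members over 50% of the 50-base words occur in another member.

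**Figure D5:**
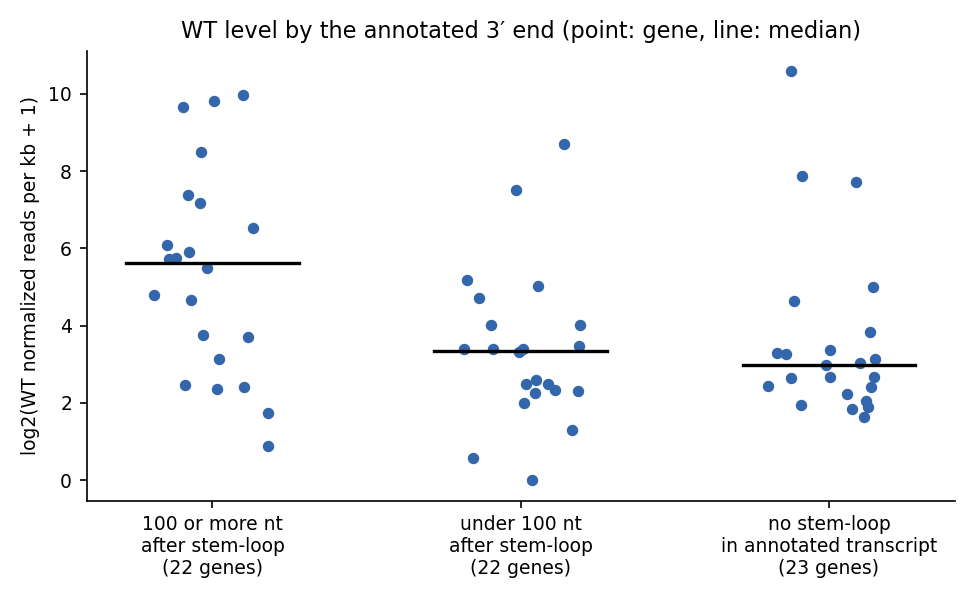
WT level as log2(normalized reads per kilobase + 1) (y axis) of each histone gene, grouped by what the annotated transcript holds at its 3′ end (x axis), with a line at the median. The class with 100 or more bases after the stem-loop has the highest median, and all 3 classes overlap.

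For the genes that transcribe histone genes, process and degrade their mRNAs or carry the proteins, median differences were near 0. Over the table, 15898 of 34094 genes had positive differences, and 6663 of the 11842 at a mean log2 value of 8 or more. Of 13 genes for the 3′ end processing of histone mRNA, 7 had negative and 6 positive differences (median −0.02), with 0 past the adjusted test. Slbp, which encodes the stem-loop binding protein, had 579 ± 33.6 in WT and 667 ± 81.7 in cKO, and Lsm10, of the U7 particle, had 138 ± 36.3 and 190.0 ± 27.2 (SD, n = 4), the latter at an unadjusted p under 0.05. Of 12 regulators of histone transcription, 4 were negative and 8 positive. Npat, the coactivator found at histone clusters, had 1828 ± 91.6 and 1745 ± 224 (SD, n = 4). Pou2f1, which encodes the octamer-binding OCT1, had 1842 ± 48.1 and 1377 ± 364, with a log2 fold change of −0.46. Its unadjusted limma p was 0.0159 and its adjusted p 0.510. Its groups were apart only narrowly, with cKO library 1 at 1785.6 and the lowest WT library at 1788.3. Libraries 2 and 3 of cKO, at 1080.2 and 1059.8, were the lowest. Of 16 histone chaperone genes 11 were positive, led by Rbbp7 (4740.1 ± 279 against 5846 ± 349, limma unadjusted p = 0.00183, adjusted p = 0.419). The cKO libraries lay wholly above the WT libraries for Rbbp7 and Nap1l4 (2.57% of all genes tested) and wholly below them for 0 of the 16. Of 15 genes for histone mRNA decay 12 were positive.

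The replacement histones are made outside S phase, and 9 of 11 had positive differences, with overlapping sums (102.8% of WT) and a median of 0.11. H2afy2 (macroH2A2) had 519 ± 51.7 in WT and 676 ± 38.0 in cKO, and Cenpa, the centromeric H3, 84.4 ± 13.3 and 113 ± 8.19 (SD, n = 4), both without overlap and with adjusted p of 0.496 and 0.574. H3f3a and H3f3b, which both encode H3.3, had log2 fold changes of −0.16 (SE 0.12) and 0.16 (SE 0.090). Of 18 genes of S phase and proliferation 14 were positive (median 0.10). Their sum was 4885 to 5140.3 in WT and 5117 to 5683 in cKO, with overlap. Among all genes 1836 of 4879 were positive at a mean log2 value of 5 to 8, and 6663 of 11842 at 8 or more. No gene of these 6 lists passed the adjusted test.

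RNAs without a poly(A) tail other than histone mRNAs were looked up in the same libraries. Of 23 measured, 17 averaged under 10 normalized reads, and 14 had negative differences (median −0.12). Their sum was 645 to 735 in WT and 684 to 873 in cKO, with overlap. Most of it was Rn7s1, Rn7s2 and Rn7sk, with WT means of 262, 239 and 85.0. Of the 17 tested, 1 was lower at an unadjusted limma p under 0.05 and 0 were higher. It was Scarna2, at 8.56 ± 7.28 in WT and 1.06 ± 2.12 in cKO (SD, n = 4). Markers of other cell types moved with the groups in part. All 10 choroid plexus markers had negative differences, with sums of 5661 to 170010 in WT and 11002 to 48842 in cKO, as did all 10 oligodendrocyte markers (121030 to 177610 against 98431 to 152580) and 9 of 10 ependymal markers (1501 to 2939 against 1407 to 1926). All 8 microglial markers had positive differences. Markers of CA1 pyramidal neurons were split 4 and 4, with sums of 15247 to 23561 in WT and 15817 to 23841 in cKO, and those of immature neurons and progenitors were negative in 5 of 8 (4983 to 8138 against 5272 to 7346). Differences were negative in 5 of 8 oligodendrocyte precursor, 3 of 8 astrocyte, 5 of 8 endothelial and 7 of 8 erythrocyte markers. At an unadjusted limma p under 0.05, 3 oligodendrocyte markers (Aspa, Ermn and Opalin), 4 ependymal, 1 choroid plexus and 1 precursor marker were lower in cKO. At the same level 2 microglial, 1 astrocyte, 1 endothelial and 1 CA1 marker were higher. Of all genes tested 4.6% were lower and 4.07% higher. Aspa, an enzyme of oligodendrocytes, had 945, 645, 790.2 and 980.2 normalized reads in WT and 394, 434, 435 and 565 in cKO, without overlap (54.4% of WT, adjusted p = 0.261), a smaller p than that of Hist1h2ac. Ermn did not overlap either (64.0% of WT). No marker was at 0 in all libraries, and all list sums overlapped between groups. Without WT libraries 2 and 4, which had the most choroid plexus reads, the count of members lower at an unadjusted p under 0.05 was 5, of 50 tested, and the median over those was −0.31. The part of these markers in the histone values was not tested.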

How the data were processed

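RNA sequencing of 4 WT and 4 cKO libraries was analysed from 1 table deposited by the authors. The tools named in the submitters' processing notes are STAR, StringTie and DESeq2, and the build is mm9. Their versions, the annotation and the strand setting of the counting are not stated there or in the labels. The deposited values are log2 values, log2(reads / size factor + 1): 100% of them gave whole reads (tolerance 0.001). The deposited table also holds a p-value, an FDR and a log2 fold change by the authors, and 2 columns of group means were not used.

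Groups were compared with limma 3.58.1 in R 4.3.3 (trend, robust, two-sided, pseudocount 1, no covariate) over the 26135 genes that reached 1 normalized read in 4 or more libraries. Adjusted p is Benjamini-Hochberg. The recovered reads were tested with limma-voom as an alternative. The code was tested on simulated data. The members and gene lists were chosen with earlier results of these data known. Named members were the 12 with most reads, the 3 with the smallest p in each type, those without overlap and the largest positive fold change. Other members named (such as Hist1h4n, Hist2h4 and Hist1h2ae) were chosen after their values were seen. The labels do not say whether same-numbered libraries are pairs, and the main fit used no pairing (closing section). Stem-loops, transcript lengths and overlaps came from GENCODE vM21 (GRCm38) and promoters from RefSeq (66 members matched 1 RefSeq gene by synonym), without conversion of coordinates. Alternatives were quantile and TMM scaling, other filters, pseudocount 0.1, limma-voom, array weights, a replicate block and leaving out each library. Python 3.11.15, pandas 2.3.3, numpy 2.4.6 and matplotlib 3.10.9 were used.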

Additional observations from a re-analysis of the deposited data

Results flagged for a closer look

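In 62 groups of 4 libraries (the named members and the sums by type), 13 held a library far from the other 3. Normally distributed values meet the criterion in about 1 group of 20. For counts near 0 that rate does not hold, since a group with 3 libraries at 0 and 1 above it always meets the criterion. In WT these were library 1 for Hist1h3d (49.9 normalized reads), library 2 for Hist1h2af (0), library 3 for Hist1h4f (4.65), Hist1h2bg (196) and Hist2h2aa1 (0), and library 4 for the summed H2A reads (2463). In cKO they were library 1 for Hist1h4f (0), library 3 for Hist1h2af (3.28), and library 2 for Hist1h1e (23.1), Hist1h3g (4.02), Hist1h3e (4.02), Hist2h3c1 (8.03) and Hist2h2aa1 (402). Library 2 of cKO thus accounts for 5 of the 13, where Hist2h2aa1 and Hist2h3c1 are linked genes and not separate cases. Several of these values stand for fewer than 6 reads.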

How the results depend on the processing

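No member passed the adjusted threshold under any of the alternatives run. The count of members lower at an unadjusted p under 0.05, 5 as reported, was 3 with quantile normalization, 3 with no filter (67 genes), and 2 with a filter at 10 normalized reads, which tests 28 members. It was 5 with TMM scaling and with limma-voom, 6 with a pseudocount of 0.1 and 7 with array weights. Leaving out 1 library gave 3 (without WT library 1) to 6. The median over tested members ran from −0.19 (quantile) to −0.44 (pseudocount 0.1), and from −0.38 to −0.26 with 1 library left out. The histone sum in cKO stayed between 86.9% and 90.8% of WT. The H3 sum turned from 116% to 85.4% of WT without Hist2h3c1, the H3 gene with most reads. Leaving out Hist2h2aa1 as well cannot change the H3 sum, since it is an H2A gene. Leaving out Hist2h2aa1 and Hist2h3c1 together was an alternative chosen after seeing the data. Over 377 alternative values of named members none passed, and 6 had the other sign, all with 1 library left out: 4 of Hist2h3c1, 1 of Hist1h1e and 1 of Hist2h3c2. The deviations of same-numbered libraries had correlations of −0.0037, 0.029, 0.021 and −0.040. Correlations near 0 cannot exclude that these libraries came from pairs of mice. The fit with the replicate number as a block gave 4 members lower, a median of −0.33 and 0 past the threshold. The 39 members under 10 normalized reads limit what can be seen for single rare genes. Reads shared between near-identical genes cannot be reassigned from the table.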
